A study of Pleurodeles waltl with 9 samples.

Results

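In the dorsal iris of the Iberian ribbed newt (Pleurodeles waltl), 20 transcripts had high values at 1 day post-lentectomy (dpl) and low values both in intact eyes and at 4 dpl. They were chosen by their values. A transcript was kept when its lowest value at 1 dpl was at least 200 and at least 4 times the highest value, plus 1, among 2 intact libraries and 3 libraries taken at 4 dpl. Of 295141 transcripts in the deposited table, 9552 had a lowest value at 1 dpl of at least 200, and 426 of these were at least 4 times above intact by the same measure. The 20 transcripts are 4.69% of those 426, and the other 406 were too high at 4 dpl to be kept. Because these values made the choice, the height of the peak and the distance of 1 dpl from both other groups are given below as a description, with no test.

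Lentectomy is the surgical removal of the lens. Newts can form a new lens after it, and the source is the pigment epithelium of the dorsal iris, whose cells lose their pigment, re-enter the cell cycle and become lens cells. The earliest days after the operation also include the wound response. In injured tissue generally, transcripts of immediate early transcription factors and of inflammatory mediators are known to appear soon after damage and to decline again, while other transcripts stay high for longer.

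The groups were intact dorsal iris, dorsal iris at 1 dpl and dorsal iris at 4 dpl. The animals were 13 months old, those of the operated groups had their lenses taken out under tricaine anesthesia, and no genetic change or drug treatment is given for any group. Each group had 3 libraries of poly(A) RNA, and each library held the pooled tissue of 4 newts, so the spread between libraries is a spread between pools and not between animals. Dissected iris holds several cell types, and in such tissue a lower value from fewer cells of a type cannot be told apart from less RNA per cell.

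The identity of the 20 transcripts is known only as far as their IDs go. The IDs of 6 carry an mRNA number whose origin is not stated in the sources used here. The other 14 were assigned by StringTie, which builds transcripts from aligned reads. No ID matched a name in the RefSeq gene table for this species, so no gene symbol, chromosome position or sequence is given, and neither the dorsal iris label nor lists of immediate early, inflammatory, blood or lens genes could be checked by markers. StringTie IDs made up 70.0% of the 20 transcripts, against 40.6% of the 426 raised at 1 dpl, 36.1% of the 9552 high at 1 dpl and 45.8% of the whole table. In what follows the transcripts are ranked from 1 to 20 by their mean value at 1 dpl, and 2 are named by ID: mRNA136986, the most abundant, and mRNA8094, the one among the others whose lowest 1 dpl value stood furthest above every intact and 4 dpl value. The rank only orders the text, since levels are compared within a transcript.

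The deposited values are titled average TPM, which is a length-corrected measure, but each library sums to between 17541441 and 22023433, so they are called values here and not TPM. The number of reads behind them cannot be read from the table, and no counting interval or detection limit can be given. The study left out intact replicate 3 for its low share of aligned reads, and its column has the lowest sum. That library was not used by the rule or by any test below unless it is named.

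The peak at 1 dpl differed widely in size between the 20 transcripts. The mean at 1 dpl ran from 268 to 9212 with a median of 721. The fold of 1 dpl over intact, computed on means plus 1, had a median of 32.2 and ran from 5.79 to 536, and it was above 30 in 10 transcripts and above 100 in 3. The fold of 1 dpl over 4 dpl, computed in the same way, had a median of 16.0 and ran from 7.23 to 178. On the log2 scale the median difference was 4.69 for 1 dpl minus intact and 4.24 for 1 dpl minus 4 dpl. The 3 transcripts just inside the rule's limit of 4 times had ratios of 4.14, 4.25 and 4.30, and the 3 just outside had 3.94, 3.91 and 3.84. Just inside the limit of 200 were lowest 1 dpl values of 201, 219 and 225, and just outside were 180.3, 162 and 152.

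Together the 20 transcripts took a very small share of each library. Their summed value was 678 and 666 in the kept intact libraries, 14142, 23758 and 30404 at 1 dpl, and 887, 1033 and 877 at 4 dpl. That is 0.00350% and 0.00341% of the library sum in intact iris, between 0.0693% and 0.138% at 1 dpl, and between 0.00412% and 0.00502% at 4 dpl. The sum at 1 dpl leaned on 1 transcript: mRNA136986 made up 22.5%, 47.4% and 43.4% of it in replicates 1, 2 and 3. Without mRNA136986 the summed values at 1 dpl were 10957, 12489 and 17221.

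**Figure D1:**
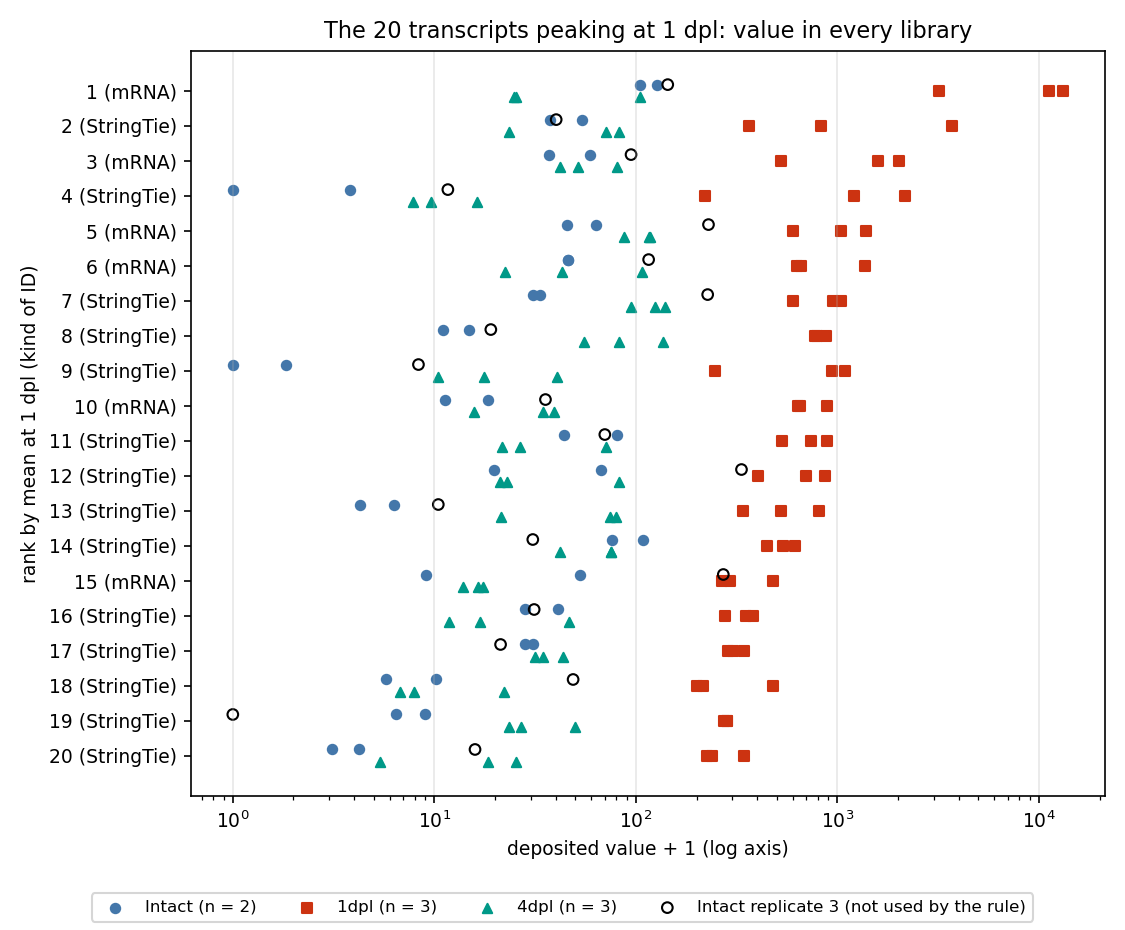
Value plus 1 of each of the 20 transcripts in every library, on a log axis. Each row is 1 transcript, ordered by its mean at 1 dpl, with intact (n = 2), 1 dpl (n = 3) and 4 dpl (n = 3) libraries as filled symbols and intact replicate 3 as an open circle. The 1 dpl squares lie to the right of all filled symbols of the other groups in every row, as the rule required, and the open circle reaches the 1 dpl squares only for the transcript of rank 15.

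The transcript with the highest mean at 1 dpl, mRNA136986, was also the one with the deepest return, though its fold over intact was not the largest. Its values were 127 and 104 in intact iris, 3185, 11269 and 13183 at 1 dpl, and 23.96, 24.5 and 104 at 4 dpl. The 1 dpl libraries stood well above the rest, with replicate 1 the lowest of them, and the 4 dpl values were at or below the intact ones. Its mean was 9212 ± 5307 at 1 dpl (SD, n = 3), 115 ± 15.8 in intact iris (n = 2) and 50.8 ± 46.1 at 4 dpl (n = 3). On means plus 1, the fold of 1 dpl was 79.1 over intact and 178 over 4 dpl. Replicate 2 and replicate 3 of 4 dpl differed by more than 4 times, so the depth of the return is uncertain: the log2 difference for 4 dpl minus intact was -1.51 (SE 0.74).

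The other named transcript, mRNA8094, had a narrower spread. It had values of 17.5 and 10.3 in intact iris, 649, 639 and 883 at 1 dpl, and 33.5, 38.0 and 14.7 at 4 dpl. Its lowest 1 dpl value was 16.4 times the highest value plus 1 in the other groups, against 24.96 times for mRNA136986 and a median of 5.89 over the 20. The 4 dpl range overlapped the intact range, with 2 of the 3 libraries above both intact ones. Its mean was 724 ± 138 at 1 dpl (SD, n = 3), a fold over intact of 48.7 on means plus 1. The log2 difference of 4 dpl minus intact was 0.94 (SE 0.53).

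How far each transcript came back by 4 dpl was expressed as a position: the mean log2 value at 4 dpl is placed on a line where 0 is the intact mean and 1 is the 1 dpl mean. The median position of the 20 transcripts was 0.09, with quartiles of -0.05 and 0.33 and a range from -0.25 to 0.49. Taken with each 4 dpl library alone the median was 0.21, 0.17 and 0.05, and it was 0.16 without 4 dpl replicate 3 and also 0.16 without intact replicate 2. Among all 426 transcripts raised at 1 dpl the median was 0.72, with quartiles of 0.52 and 0.90, and 61 were at or above 1. The rule itself fixed that the 20 would be low on this line. It did not choose all low ones, as 40 of the 426 were under 0.25 and 13 were under 0, of which 13 and 6 were among the 20. Within the 20, the position split the transcripts into 6 that ended under the intact mean, 7 between 0 and 0.25, and 7 between 0.25 and 0.5.

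**Figure D2:**
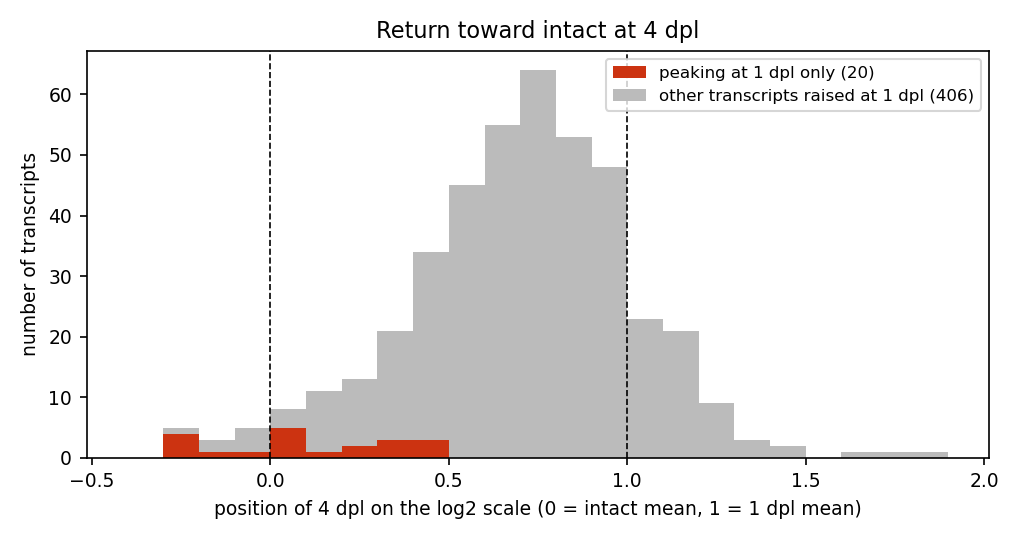
Stacked histogram of the position of 4 dpl between the intact mean (0) and the 1 dpl mean (1), both on the log2 scale, for 426 transcripts raised at 1 dpl; the vertical axis is the number of transcripts. The 20 transcripts chosen for low values at 4 dpl lie between -0.25 and 0.49, and the other 406 are centered higher, the median of all 426 being 0.72.

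The 6 transcripts that ended under the intact mean were those of ranks 1, 11, 12, 14, 15 and 16. The transcript of rank 14 had values of 107 and 75.3 in intact iris, 617, 534 and 448 at 1 dpl, and 74.3, 41.03 and 74.4 at 4 dpl. All its 4 dpl values were below both intact values, which among the 20 was true only of this transcript and of mRNA136986. It had the smallest peak over intact, 5.79 times. Rank 11 had values of 79.2 and 42.8 in intact iris, 532, 886 and 735 at 1 dpl, and 25.6, 70.0 and 20.7 at 4 dpl. Its 4 dpl replicate 2 lay inside the intact range and the other two below it. Rank 16 had 27.0 and 40.1 in intact iris, 380.2, 275 and 349.7 at 1 dpl, and 45.4, 10.8 and 15.9 at 4 dpl, so that 1 of the 4 dpl libraries was above intact and the others below. For ranks 12 and 15 the 2 intact libraries themselves were far apart. Rank 12 had 18.8 and 65.8 in intact iris, 402, 697 and 865 at 1 dpl, and 22.0, 81.5 and 20.2 at 4 dpl. Rank 15 had 8.11 and 52.1 in intact iris, 291, 266 and 475 at 1 dpl, and 12.9, 16.5 and 15.6 at 4 dpl. Their positions of -0.02 and -0.12 therefore rest on which intact library is taken.

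The 7 transcripts between 0 and 0.25 were those of ranks 2, 3, 5, 6, 10, 17 and 18. The steadiest was that of rank 17, with 27.2 and 29.8 in intact iris, 343, 301 and 285 at 1 dpl, and 42.4, 30.5 and 33.7 at 4 dpl. All its 4 dpl values were above both intact ones, but by little, and its position was 0.09. Rank 3 had 58.0 and 36.1 in intact iris, 523, 2022 and 1591 at 1 dpl, and 40.98, 80.0 and 50.8 at 4 dpl, so its 4 dpl and intact values overlapped. The transcript of rank 5 stood at the upper end of this group with a position of 0.24. It had 44.7 and 62.2 in intact iris, 598, 1381 and 1036 at 1 dpl, and 116, 86.1 and 115 at 4 dpl, all 3 above both intact values. Rank 6 had nearly equal intact values of 45.0 and 44.9, then 661, 1376 and 628 at 1 dpl, and a wide 4 dpl range of 21.4, 42.1 and 106. For rank 18 the values were 4.77 and 9.21 in intact iris, 214, 480.3 and 201 at 1 dpl, and 21.1, 6.94 and 5.75 at 4 dpl. In both of these the 4 dpl range reached above intact in 1 library, and for rank 18 the other 4 dpl values lay between the intact ones.

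The 7 transcripts between 0.25 and 0.5 were those of ranks 4, 7, 8, 9, 13, 19 and 20, all with StringTie IDs. They came back only in part. The transcript of rank 8 had 10.1 and 13.9 in intact iris, 777, 874 and 788 at 1 dpl, and 81.1, 135 and 54.6 at 4 dpl. Every 4 dpl value was above both intact values. The mean was 90.4 ± 41.2 at 4 dpl (SD, n = 3) and 12.0 ± 2.72 in intact iris (n = 2), a fold of 7.03 on means plus 1. Rank 7 had 32.3 and 30.03 in intact iris, 1044, 597 and 948 at 1 dpl, and 93.9, 138 and 124 at 4 dpl. Its mean was 118 ± 22.4 at 4 dpl and 31.2 ± 1.62 in intact iris, a fold of 3.71 on means plus 1. Rank 13 had 5.33 and 3.27 in intact iris, 339, 810.1 and 524 at 1 dpl, and 73.5, 78.8 and 20.3 at 4 dpl. Its mean was 57.5 ± 32.3 at 4 dpl and 4.30 ± 1.46 in intact iris, a fold of 11.0 on means plus 1. In all 3 of these the range at 4 dpl did not overlap that of the kept intact libraries. For rank 7, however, intact replicate 3 had 226, above every 4 dpl value.

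Some transcripts of this group, those of ranks 4 and 9, were listed at 0 in 1 intact library, which makes their fold over intact depend on the added 1. The transcript of rank 9 had 0.842 and 0 in intact iris, 941, 247 and 1094 at 1 dpl, and 16.6, 9.41 and 39.5 at 4 dpl. Rank 4 had 2.83 and 0 in intact iris, 1200.4, 219 and 2153 at 1 dpl, and 15.2, 6.86 and 8.67 at 4 dpl. These had the largest folds of 1 dpl over intact, 536 for rank 9 and 493 for rank 4, and all their 4 dpl values were above both intact values. Rank 19 had 5.45 and 7.96 in intact iris, 272, 282 and 282 at 1 dpl, and 22.4, 48.9 and 25.9 at 4 dpl. Rank 20 had 3.24 and 2.11 in intact iris, 343, 237 and 225 at 1 dpl, and 24.4, 17.4 and 4.36 at 4 dpl. Both were again above intact in every 4 dpl library. No transcript among the 20 was listed at 0 in a 4 dpl library, and 18 were above 0 in all 8 libraries.

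The remaining difference between 4 dpl and intact was estimated with limma. The rule capped the values of both groups, and the value nearest to the cap was a 4 dpl one in 16 of the 20 and an intact one in 4, so what follows describes the 20 and is not a test of them. The fit covered 154825 transcripts with a mean of at least 0.5, and all 20 passed that filter. For 4 dpl against intact, this fit called 3 of the 20 higher and 0 lower at an adjusted p under 0.05. Of all tested transcripts, 1.37% were called higher, 0.651% lower and 2.02% in either direction, and nothing is read from the 20 against these shares. At an unadjusted p under 0.05 the count was 8 of 20, and 11.4% of all tested. The 3 called were ranks 8, 13 and 7, whose log2 differences were 2.73 (SE 0.46), 3.27 (SE 0.68) and 1.88 (SE 0.39). Ranks 9 and 19, with 3.85 (SE 0.82) and 2.05 (SE 0.52), were not called. The median log2 difference over the 20 was 0.38, beside -0.12 over all tested transcripts.

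These 3 calls depended on single libraries. The count was 0 without intact replicate 1, intact replicate 2, 4 dpl replicate 1 or 4 dpl replicate 2, and 1 without 1 dpl replicate 1 or 1 dpl replicate 3. It was 2 without 1 dpl replicate 2 or 4 dpl replicate 3, and 2 when intact replicate 3 was added. By means, 14 of the 20 were above and 6 below intact at 4 dpl. That split was 13 and 7 when libraries were rescaled to 1 common sum and 11 and 9 with intact replicate 3. By ranges, all 4 dpl values were above both intact values in 9 of the 20, where 10.5% of tested transcripts had this order, and below both in 2, where 17.4% did. In the other 9 the ranges overlapped. The rule used these same values, so nothing is read from the 20 against these shares. The fold of 4 dpl over intact, on means plus 1, ran from 0.445 for mRNA136986 to 16.1 for rank 9, with a median of 1.41. Among the 426 raised at 1 dpl the median was 5.73.

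The 3 libraries at 1 dpl differed strongly in many of these transcripts. On the log2 scale those at 4 dpl differed more. The median SD of log2(value + 1) over the 20 was 0.81 at 4 dpl (n = 3), 0.51 at 1 dpl (n = 3) and 0.39 in intact iris (n = 2). The level also differed, with a median of the means of 40.0 at 4 dpl and 721 at 1 dpl. No SD at 4 dpl or in intact iris was taken over other transcripts, so the order of these SDs is not read as a trait of the 20. The coefficient of variation at 1 dpl had a median of 34.6% over the 20 and 15.4% over the 9552 transcripts high at 1 dpl. The ratio of the highest to the lowest 1 dpl library had a median of 1.97 over the 20 and 1.34 over the 9552. It was above 2 in 10 transcripts and above 4 in 4, and under 1.5 in 6. The widest was the transcript of rank 2, with a ratio of 10.2. It had 53.2 and 36.3 in intact iris, 831, 365 and 3712 at 1 dpl, and 81.0, 70.3 and 22.5 at 4 dpl. Rank 4 followed with a ratio of 9.81, rank 9 with 4.43 and mRNA136986 with 4.14. At the other end, the transcript of rank 19 differed by a ratio of 1.03 and had a coefficient of variation of 1.93%, and rank 8 had 6.53%. For comparison, 110 transcripts that met the same thresholds at 4 dpl, against intact and 1 dpl, had a median coefficient of variation at 4 dpl of 21.5%.

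The order of the 1 dpl libraries varied between transcripts. The highest 1 dpl value was in replicate 1 for 5 transcripts, replicate 2 for 7 and replicate 3 for 8, and the lowest was in replicate 1 for 8, replicate 2 for 7 and replicate 3 for 5. The transcripts with the widest spread were low in different libraries: mRNA136986 and rank 3 in replicate 1, and ranks 2, 4 and 9 in replicate 2. Of the 10 with a ratio above 2, the lowest library was replicate 1 in 5, replicate 2 in 3 and replicate 3 in 2. The median peak over intact, taken with each 1 dpl library alone, was 4.50, 5.06 and 4.99 on the log2 scale.

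**Figure D3:**
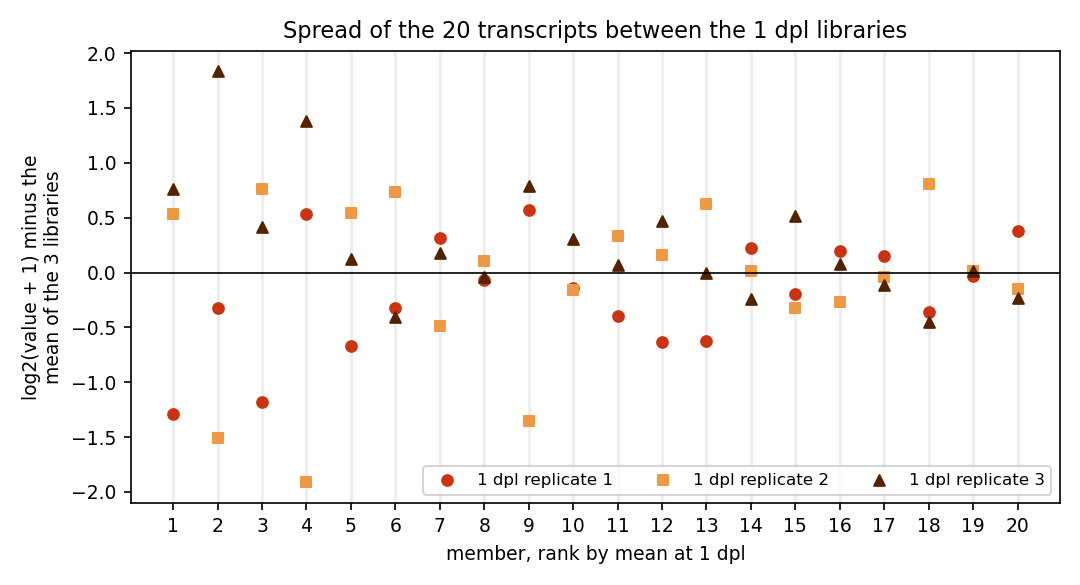
Deviation of each 1 dpl library from the mean of the 3, in log2(value + 1), for the 20 transcripts in order of rank. Points near 0 are libraries that do not differ, as for ranks 8 and 19, and the widest spreads are at ranks 2 and 4, where replicate 2 is lowest and replicate 3 highest.

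Intact replicate 3 was the only library the rule did not use. In it the 20 transcripts ran from 0 to 333 with a median of 36.9, and their sum was 1740.0, or 0.00992% of the library, more than in either kept intact library and than in any library at 4 dpl. It was under the lowest 1 dpl value in 19 of the 20, and at least 4 times under it, by the measure of the rule, in 16, a share of 80.0%. Of the 426 transcripts raised at 1 dpl by the same thresholds, 82.6% met that, and of the 9552 high at 1 dpl, 15.6%. The share among the 20 was thus close to that among all transcripts raised at 1 dpl.

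The 4 that fell short of 4 times were ranks 5, 7, 12 and 15. Intact replicate 3 had 228 for rank 5, 226 for rank 7, 333 for rank 12 and 270.4 for rank 15. The value for rank 15 lay inside the 1 dpl range of 291, 266 and 475. Intact replicate 3 was above both kept intact libraries in 14 of the 20, within them in 3 and below them in 3. It was above both in 41.3% of the 426 and 37.9% of all tested transcripts. The rule capped the kept intact libraries and not this one, so nothing is read from the 14 against these shares. For mRNA136986 intact replicate 3 had 143 and for mRNA8094 34.6, both far under 1 dpl.

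For the 14 transcripts with StringTie IDs, other transcripts with the same StringTie gene number could be set beside the chosen one. Transcripts with an mRNA number carry no gene number, so any that belong to the same gene are missing from this comparison. By StringTie IDs alone, the gene consisted of the 1 transcript in 6 cases, and in 8 it had between 2 and 19. When all transcripts of a StringTie gene number were summed, 7 of the 14 genes still met the rule: the 6 of 1 transcript and that of rank 9. In the other 7 the lowest sum at 1 dpl was under 4 times the highest sum plus 1 in intact iris or at 4 dpl. In all 8 genes with several transcripts the share of the chosen transcript was larger at 1 dpl than in intact iris and than at 4 dpl, as the choice of transcript favors.

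The 8 genes fell into several kinds. In the gene of rank 9 the rest moved like the chosen transcript: the other 3 summed to means of 2.39 in intact iris, 533 at 1 dpl and 21.5 at 4 dpl. In the gene of rank 13 the 1 other transcript was also high at 1 dpl, at 7.04 in intact iris, 408 at 1 dpl and 149 at 4 dpl. It came back less than the chosen transcript, with a position of 0.73 at 4 dpl against 0.49, an order that the choice of transcript favors. In the gene of rank 12 the sum of the rest hardly differed between groups, at 1188 in intact iris, 1238 at 1 dpl and 1044 at 4 dpl. The chosen transcript made up 3.43%, 34.6% and 3.80% of the gene at these times. Within that sum the means moved in opposite directions. Transcript 1 averaged 181 in intact iris and 614 at 1 dpl, and transcript 4 averaged 982 and 565, neither called in limma. In the gene of rank 18 the rest averaged 498 in intact iris, 932 at 1 dpl and 643 at 4 dpl, higher at 1 dpl but by much less than the chosen transcript, whose shares were 1.38%, 24.2% and 1.72%. In the gene of rank 11 the rest was highest at 4 dpl, at 2304 in intact iris, 7464 at 1 dpl and 16674 at 4 dpl, while the chosen transcript took 2.58%, 8.77% and 0.232%. In the gene of rank 16 the 1 other transcript averaged 51.3 in intact iris, 151 at 1 dpl and 197 at 4 dpl. In the gene of rank 2 the rest averaged 1359 in intact iris, 28420 at 1 dpl and 9028 at 4 dpl. Its chosen transcript took 3.19%, 5.44% and 0.638%. The sums of that gene at 1 dpl were 13225, 12340 and 64602, so its mean there leaned on replicate 3. At 4 dpl the sums were 7795, 18863 and 598, beside 1505 and 1303 in intact iris. For the gene of rank 20 the rest averaged 118 in intact iris, 1502 at 1 dpl and 390 at 4 dpl. Salmon divides reads between the transcripts of a gene by estimation, so the transcripts of 1 gene are not separate measurements.

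**Figure D4:**
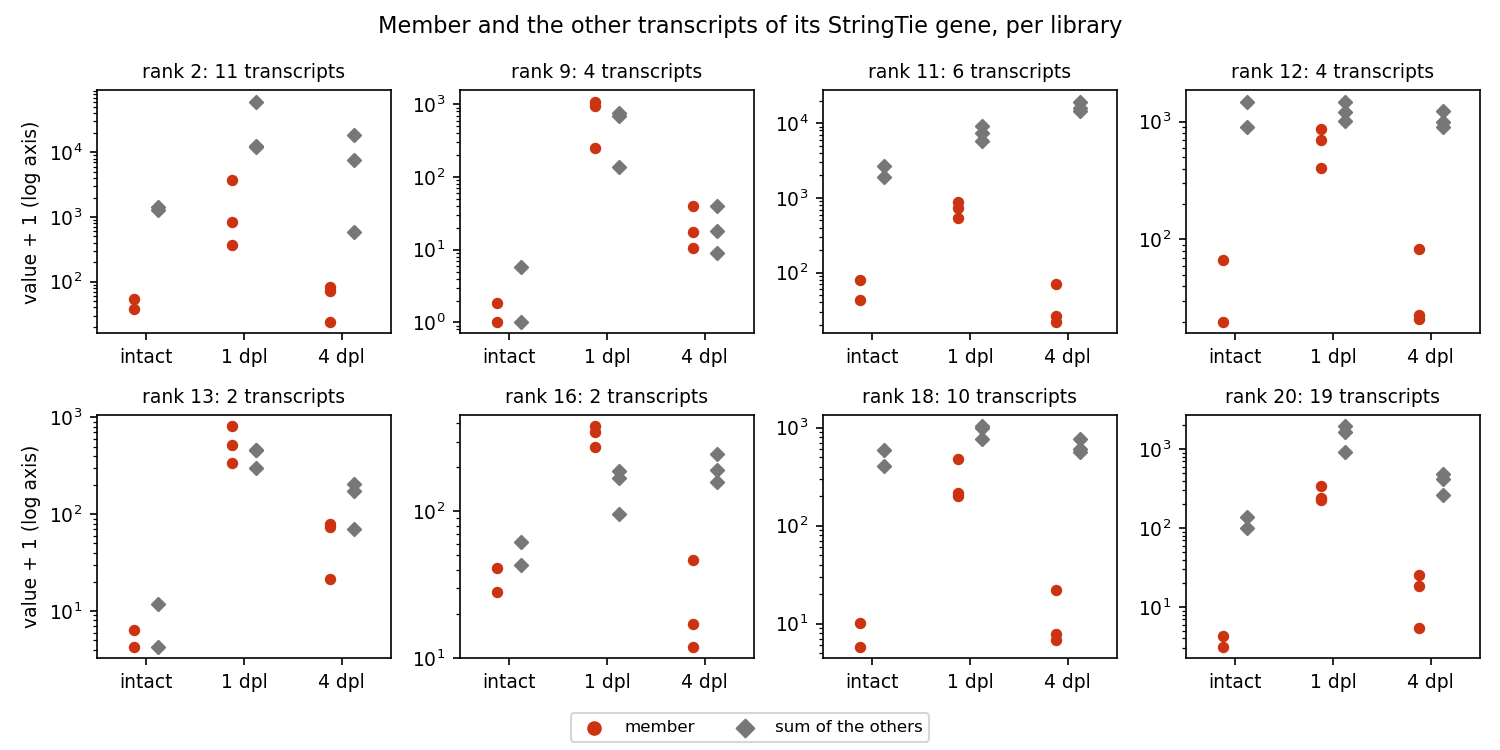
Value plus 1 in each kept library, on log axes that differ between panels, for the 8 StringTie genes with 2 or more transcripts. Each panel shows the chosen transcript and the sum of all other transcripts with the same StringTie gene number. In the panels of ranks 9, 13 and 20 both series are high at 1 dpl. At rank 2 the sum of the others is also high at 1 dpl, with widely spread 4 dpl values. In the panel of rank 12 the sum of the others stays near its intact level, and in that of rank 18 it is somewhat higher at 1 dpl. In those of ranks 11 and 16 its mean is highest at 4 dpl.

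The rule did not use these other transcripts, and 50 of them were tested. At 1 dpl against intact, 8 were called higher and 1 lower at an adjusted p under 0.05 in limma, where 0.971% of all tested transcripts were called higher. The 8 lay in 5 genes, those of ranks 9, 11, 13, 18 and 20. At 4 dpl against 1 dpl, 3 were called lower and 2 higher, where 0.243% of all tested transcripts were called lower and 0.648% in either direction. The median log2 difference over the 50 was 1.72 for 1 dpl minus intact and -1.35 for 4 dpl minus 1 dpl. Over all tested transcripts these medians were 0.03 and -0.24. The genes of ranks 20 and 2, of 19 and 11 transcripts, supplied the most of the 50, which are therefore not separate units. With 1 library left out, between 1 and 7 of the 8 calls remained, and the 3 calls of lower values at 4 dpl were lost whichever library was left out.

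The gene of rank 20 held 4 of the 8. Its transcript 7 had 23.6 and 13.1 in intact iris, 834, 769.6 and 421 at 1 dpl, and 172, 101 and 137 at 4 dpl. It was higher at 1 dpl than intact by 5.12 on the log2 scale (SE 0.47, limma adjusted p = 0.00122), and this call was kept whichever library was left out. Transcript 12 had 2.96 and 5.19 in intact iris, 170.1, 223 and 116 at 1 dpl, and 13.4, 3.61 and 8.32 at 4 dpl, and transcript 17 had 11.9 and 4.25 in intact iris, 250.4, 229 and 107 at 1 dpl, and 16.1, 12.0 and 18.4 at 4 dpl. Both thus had the course of the chosen transcript at lower values, with log2 differences for 4 dpl minus 1 dpl of -4.28 (SE 0.59, limma adjusted p = 0.0165) and -3.50 (SE 0.56, limma adjusted p = 0.0309). The gene of rank 18 held the third such transcript, with 5.89 and 4.50 in intact iris, 279, 139 and 129 at 1 dpl, and 12.4, 5.25 and 27.2 at 4 dpl, and a log2 difference of -3.69 (SE 0.65, limma adjusted p = 0.0440). The remaining called transcript of the gene of rank 20, transcript 1, did not come back. It had 6.39 and 5.79 in intact iris, 53.8, 91.1 and 35.5 at 1 dpl, and 88.6, 45.6 and 88.0 at 4 dpl. Its log2 difference was 3.01 for 1 dpl minus intact (SE 0.59, limma adjusted p = 0.0470). For 4 dpl minus 1 dpl it was 0.34 (SE 0.53) and not called.

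The gene of rank 11 had transcripts that moved the other way. Its transcript 5 had 209.8 and 239.6 in intact iris, 42.6, 30.02 and 58.2 at 1 dpl, and 2212, 4357 and 2629.9 at 4 dpl. It was lower at 1 dpl than intact by a log2 difference of -2.39 (SE 0.40, limma adjusted p = 0.0223) and higher at 4 dpl than at 1 dpl by 6.09 (SE 0.36, limma adjusted p = 0.000838). This was the reverse of the chosen transcript of that gene at every step. Transcript 6 had 79.1 and 96.9 in intact iris, 168, 46.6 and 42.2 at 1 dpl, and 1194, 1535 and 1225 at 4 dpl, higher at 4 dpl than at 1 dpl by 4.22 (SE 0.50, limma adjusted p = 0.0096). Transcript 1, which held most of the gene's value, had 1549 and 2106 in intact iris, 5134, 6713 and 8567 at 1 dpl, and 10258, 12640.4 and 10449 at 4 dpl. It was higher at 1 dpl than intact by 1.88 (SE 0.21, limma adjusted p = 0.00354) and higher still at 4 dpl in every library. For transcript 5 the call at 4 dpl against 1 dpl was lost without 1 dpl replicate 2, and the call at 1 dpl against intact was kept only without 1 dpl replicate 3 or 4 dpl replicate 2. The call for transcript 6 was lost on leaving out any library but 1 dpl replicate 1, and that for transcript 1 without 1 dpl replicate 2 or either intact library.

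The table is in the order of its IDs, with 99.997% of consecutive mRNA numbers and 99.0% of consecutive StringTie numbers rising or equal, so nearby rows may be nearby on the genome, but no position is given. This comparison was chosen after the data had been seen. Within 3 rows of the 20 transcripts there were 95 others, leaving out members of the 20 and transcripts of their StringTie genes, and 78 of them were tested. Of these, 3 (3.85%) were called higher at 1 dpl than intact, against 0.971% of all tested, and 5 (6.41%) were called lower at 4 dpl than at 1 dpl, against 0.243%. In the other direction 1 was called higher at 4 dpl than at 1 dpl. The shares depended on the distance: within 1 row both were 8% of 25 tested, and within 10 rows they were 4.27% and 3.42% of 234. Genes could be told from StringTie IDs only, so some of these rows may belong to the same gene as a nearby chosen transcript. Reads that Salmon divides by estimation could then be shared with it, and nothing is read from these shares.

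The clearest case surrounds ranks 8 and 19, which are in adjacent rows and have consecutive StringTie gene numbers. The transcript 2 rows before rank 8 had 3012 and 1975 in intact iris, 51748, 46394 and 44872 at 1 dpl, and 11421, 17684 and 11706 at 4 dpl. It was higher at 1 dpl than intact by 4.29 on the log2 scale (SE 0.21, limma adjusted p = 5.3e-05), a call kept whichever library was left out, and lower at 4 dpl than at 1 dpl by a log2 difference of -1.84 (SE 0.19, limma adjusted p = 0.00517). It was too high at 4 dpl for the rule. The transcript 2 rows after rank 8 had 6.47 and 0 in intact iris, 143, 263 and 219.7 at 1 dpl, and 2.24, 19.1 and 10.5 at 4 dpl, with a log2 difference of 6.21 for 1 dpl minus intact (SE 1.00, limma adjusted p = 0.0185). Its log2 difference for 4 dpl minus 1 dpl was -4.48 (SE 0.89, limma adjusted p = 0.0687) and not called. Its call at 1 dpl was not kept under every omission of a library. By its values it had the course of the 20 but fell under their limit of 200. Not all nearby rows had that course: the transcript 2 rows after rank 12 had 1926 and 1988 in intact iris, 1685, 2149.6 and 1257 at 1 dpl, and 122, 19.2 and 56.5 at 4 dpl, so that it was lower at 4 dpl than at 1 dpl by a log2 difference of -4.99 (SE 0.56, limma adjusted p = 0.0076) with no peak at 1 dpl. The transcript 1 row before rank 5 had the opposite course, with 2284 and 1718 in intact iris, 792, 179 and 124 at 1 dpl, and 2930.3, 2306 and 2189 at 4 dpl. Its log2 difference for 4 dpl minus 1 dpl was 3.23 (SE 0.57, limma adjusted p = 0.0444), a call lost on leaving out any library but 1 dpl replicate 1. With 1 library left out, between 2 and 3 of the 3 calls of higher values at 1 dpl remained, and between 0 and 3 of the 5 calls of lower values at 4 dpl.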

How the data were processed

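Dorsal iris poly(A) RNA from 9 libraries (3 each of intact, 1 dpl and 4 dpl) was prepared by the authors as directional libraries, trimmed with Trim Galore, aligned with STAR, assembled with StringTie and quantified with Salmon against transcripts with the genome as decoy. For these tools no version, and for the genome no build, is given in the sources used here. The deposited values are a signal per transcript and library, titled average TPM, which the authors averaged over inferential replicates. They are not whole numbers and do not sum to the total that TPM has by definition, so a count model could not be used and sequencing depth is unknown. Intact replicate 3 was left out, as in the study.

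From these values, members were chosen by the rule given above. Differences were tested with limma 3.58.1 in R 4.3.3 (lmFit, eBayes with an intensity trend) on log2(value + 1), with the 3 groups of 8 libraries in 1 model, a mean of at least 0.5 and Benjamini-Hochberg adjustment over all 154825 transcripts tested at a threshold of 0.05. Log2 differences on this scale understate changes of low transcripts. The method was tested on simulated data for 4 dpl against intact only. Independent normal noise was used, and changes were added on the log2 scale to abundant transcripts. That setting does not cover values near 0 or a spread that differs between groups. The members and the comparisons were chosen with earlier results of these data known. Of the IDs, 0 matched the RefSeq gene table (aPleWal1.hap1), so the 2 IDs printed are the transcript with the greatest mean at 1 dpl and the one of the others with the greatest ratio by the rule. Alternatives were the pseudocount, the filter, 3 other scalings, the fit's samples, a replicate block, leaving out each library, adding intact replicate 3, and other limits of the rule. Same-numbered libraries did not deviate together.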

Additional observations from a re-analysis of the deposited data

Results flagged for a closer look

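Intact replicate 3, which neither the rule nor the reported fit used, was above both kept intact libraries in 14 of the 20 transcripts, where 41.3% of the transcripts raised at 1 dpl had that order. The rule capped the kept intact libraries and not this one, so nothing is read from the 14 against that share. The value of intact replicate 3 for the transcript of rank 15 was 270.4, above the lowest of the 1 dpl values of 291, 266 and 475. Whether its low share of aligned reads has a part in these values was not tested.

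Among the other transcripts of the same StringTie genes, the test of 4 dpl against 1 dpl called 3 as lower and 2 as higher, so the course after 1 dpl was not shared by all. The 2 that were higher are both in the gene of rank 11, whose chosen transcript was lower at 4 dpl than at 1 dpl. The difference in direction between transcripts of that gene was not tested in 1 model. Among the neighboring rows, 5 were called lower at 4 dpl than at 1 dpl, and 0 of these calls passed under every omission of a library.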

How the results depend on the processing

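The rule gave 34 transcripts with a lowest 1 dpl value of 100 in place of 200, 10 with 400, 43 with a ratio of 3 in place of 4 and 5 with a ratio of 8, and between 27 and 54 with 1 library left out. Leaving out a library can only loosen the rule, so the number could not fall, and all 20 were kept each time. Rescaling, adding 10, adding intact replicate 3 or summing per StringTie gene number gave 16 to 19. Of the 20 transcripts, 3 were called higher at 4 dpl than intact. This was 0 with a pseudocount of 20, 5 with a minimum mean of 20, 0 without the intensity trend, 1 with only the 4 dpl and intact libraries, and between 0 and 2 with 1 library left out. None was called lower under any of the 19 alternatives. Over all transcripts 2123 were called higher and 1008 lower. These counts were 3726 and 2111 with a minimum mean of 20, 208 and 51 without the trend, and 675 to 2445 and 419 to 2332 with 1 library left out, and 2308 were lower with only the compared groups. The 3 other transcripts of the same genes called lower at 4 dpl than at 1 dpl became 6 with a minimum mean of 20. The median peak over intact, 4.69 on the log2 scale, was 3.72 with a pseudocount of 20, 4.30 with intact replicate 3 and 4.54 to 5.09 with 1 library left out. The median position of 4 dpl stayed between 0.06 and 0.16 under every alternative run. The median log2 difference of 4 dpl minus intact over all transcripts was -0.12, and it was -0.17 with libraries rescaled to 1 sum, -0.07 with median-of-ratios factors, 0 with quantile normalization, 0.04 with a minimum mean of 20, -0.41 with the replicate block and -0.50 with intact replicate 3. The log2 differences of mRNA136986, mRNA8094 and ranks 7, 8 and 13 for 4 dpl minus intact kept their direction under the alternatives, and those of ranks 9 and 19 were not recomputed, while the split of the 20 into 14 above and 6 below intact at 4 dpl became 12 and 8 without 4 dpl replicate 2, 13 and 7 without 4 dpl replicate 1 or with the block, and 11 and 9 with intact replicate 3. Same-numbered libraries correlated by -0.0806 to 0.0048 in their deviations from group means, so the numbers do not pair them. With the replicate number as a block, 1 of the 20 was called higher at 4 dpl than intact, 1184 of all transcripts higher and 518 lower, and 1 other transcript of the same genes was lower at 4 dpl than at 1 dpl. With 2 intact libraries, and depth unknown, small differences between 4 dpl and intact cannot be resolved for transcripts with values near 0.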
